A study of Mus musculus with 12 samples.

Results

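The protocadherin genes on the array were those whose symbol starts with Pcdh, taken from probe sets that the platform annotation assigns to 1 gene symbol, with the brightest probe set kept for each symbol. There were 35 such genes among 22180 genes on the array: 22 of the beta cluster, 1 of the gamma cluster (Pcdhga10), 12 non-clustered genes and 0 of the alpha cluster. RefSeq lists 14 alpha, 22 beta, 22 gamma and 12 non-clustered protocadherin genes in the mouse, so the beta cluster and the non-clustered genes were covered whole, while nearly all alpha and gamma genes are not analysed here as single genes.

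The 12 RNA samples were cultures of SKPs, or skin-derived precursors, which are mouse dermal cells grown as floating spheres, isolated from mice 9 months old of a strain that the labels spell CD57/Bl6. There were 3 isolates in each of 4 groups. The uninjured vehicle group came from intact skin, and the other groups came from wounds that had received vehicle, the drug trimebutine maleate or the drug alprostadil. Trimebutine is a drug for gut motility and alprostadil is prostaglandin E1. All cells were grown as secondary spheres in medium with FGF2, EGF and B27, so what was measured is the cultured progeny and not the skin itself. The labels state no drug dose, treatment time or skin site, and no genetic change is named for any group. Replicates are described as biological and as separate isolates, so the spread behind each p-value is that between isolates.

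Protocadherins are the largest group of the cadherin superfamily, cell-surface proteins with tandem extracellular cadherin repeats. The clustered genes lie in a row on mouse chromosome 18 as the alpha, beta and gamma clusters. Each alpha or gamma variable exon has its own promoter and is spliced to constant exons shared by its cluster, whereas each beta gene is a single exon with no shared constant part. In neurons, single cells choose a few promoters at random, with the DNA-binding protein CTCF and cohesin bringing a promoter to a distant enhancer, and the resulting mix of proteins serves self-recognition between branches of one cell. Non-clustered protocadherins stand alone in the genome, and many of them take part in cell sorting, migration and adhesion in embryonic tissues.

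Values are log2 expression after RMA, the background correction, normalization and summary of probe signals into 1 value per probe set. A value above the median of all probe sets on the same array served as the mark of clear signal, and the 12 array medians lay between 6.57 and 6.74. Probe sets of different genes bind with different strength, so a higher value for one gene than for another does not show more RNA, and differences are taken only for the same gene between arrays. Of the 35 genes, 21 exceeded the median on 3 or more arrays (60%, against 59.3% of all genes) and 17 on all 12 arrays (48.6%, against 50.6% of all genes), and 12 lay above it on none. On single arrays the number above the median ran from 17 to 22. The 21 genes were the ones tested, and the 14 others are described by their levels only.

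Among markers of cell types, all 7 fibroblast genes (Pdgfra, Col1a1, Col1a2, Lum, Dcn, Fn1 and Thy1) lay above the median on all 12 arrays. The SKP markers Twist1, Snai2, Vcan and Alpl did so too, whereas Sox2 did on 0 arrays, with values of 4.69 to 5.61, and nestin (Nes) lay at 6.60 to 7.12. Macrophage markers were high on wound alprostadil replicate 1, where their mean was 11.83 against 6.52 to 8.41 on the other 11 arrays. The mean of the fibroblast markers was 11.77 to 12.05 on 4 arrays (wound vehicle and wound alprostadil replicates 1 and 2) and 12.47 to 12.73 on the other 8. The mean of mural cell markers was 7.92 to 8.16 on the same 4 arrays and 8.17 to 8.78 on the other 8. In bulk RNA of this kind, fewer cells of a type and less RNA per cell cannot be told apart.

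Signal above the array median was found for 10 of the 22 beta genes, and these 10 are neighbours. The 22 genes run along the chromosome in the order of their numbers. The 10 genes at one end, Pcdhb13 to Pcdhb22, were all above the array median on at least 3 arrays, and 8 of them on all 12. Pcdhb13 and Pcdhb21 were the exceptions, with 9 and 8 arrays. None of the 12 genes Pcdhb1 to Pcdhb12 reached 3 arrays, and 11 of them were above the median on 0 arrays. In single values, 113 of 120 lay above the array median for Pcdhb13 to Pcdhb22 and 1 of 144 for Pcdhb1 to Pcdhb12. That 1 value was Pcdhb5 on uninjured vehicle replicate 1, at 6.96. The border between Pcdhb12 and Pcdhb13 was read from these values, so the counts are a description with no test. It also depends on the cutoff. With the 60th percentile of each array (7.17 to 7.36) in place of the median, 9 beta genes remained, and Pcdhb13, at 6.51 to 7.10, did not. They describe probe sets: how strongly each binds its RNA was not tested, so a probe set below the median does not show that its gene has less RNA than a neighbour. Beta genes are close in sequence to each other, and how far their probe sets cross-hybridise was not tested.

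Between arrays, the median level of Pcdhb13 to Pcdhb22 ran from 7.57 on uninjured vehicle replicate 3 to 8.43 on wound trimebutine replicate 1. The median level of Pcdhb1 to Pcdhb12 ran from 5.24 on uninjured vehicle replicate 2 to 5.49 on wound alprostadil replicate 3.

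**Figure D1:**
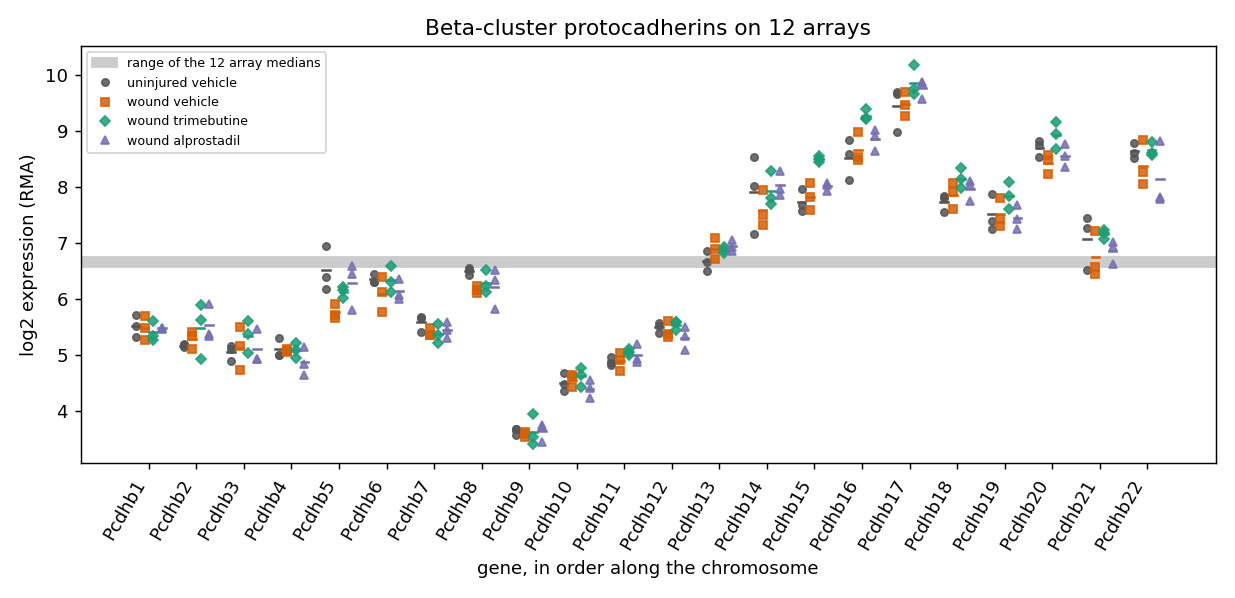
Log2 expression of the 22 beta-cluster genes (horizontal axis, in chromosome order) on 12 arrays, with a point for each array, a bar for each group mean of 3 arrays and a grey band for the range of array medians, 6.57 to 6.74. Pcdhb1 to Pcdhb12 lie at or below the band apart from 1 value of Pcdhb5, and Pcdhb14 to Pcdhb20 and Pcdhb22 lie above it on all arrays.

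The 4 beta genes with the highest signal were Pcdhb17, Pcdhb16, Pcdhb20 and Pcdhb22. Pcdhb17 had values of 9.70, 9.67 and 8.98 in uninjured vehicle, 9.26, 9.47 and 9.71 in wound vehicle, 10.18, 9.67 and 9.75 in wound trimebutine, and 9.85, 9.57 and 9.88 in wound alprostadil. The 4 groups overlap for this gene, with the highest value on a trimebutine array and the lowest on uninjured vehicle replicate 3. Pcdhb22 had group means of 8.64 ± 0.13, 8.39 ± 0.41, 8.66 ± 0.13 and 8.14 ± 0.59 (SD, n = 3 each, in the same order of groups), and its 2 low alprostadil arrays, at 7.79 and 7.82, stood below all other arrays. The ranges of the 10 tested beta genes over the 12 arrays were 0.59 (Pcdhb13) to 1.37 log2 units (Pcdhb14).

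The beta genes also tended to be high or low on the same arrays. On uninjured vehicle replicate 3 and wound vehicle replicate 1, 0 of the 10 tested beta genes were above their own median over the 12 arrays. On wound trimebutine replicate 1 and wound alprostadil replicate 3, 9 of 10 were. On wound trimebutine replicates 2 and 3 the number was 8 of 10 on both. Over all tested genes the share above their own median was 45.3% to 54.9% per array. The 10 genes share the array, the RNA and the summary step, so these counts are no independent observations.

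The alpha and gamma clusters were represented mainly by probe sets that carry several symbols and were left out of every test. A probe set with 9 alpha symbols had values of 6.44 to 6.90 and was above the array median on 3 of 12 arrays, with group means of 6.53 in uninjured vehicle, 6.77 in wound vehicle, 6.55 in wound trimebutine and 6.58 in wound alprostadil. A probe set with 9 gamma symbols had values of 6.51 to 7.22 and was above the median on 10 arrays. Another probe set, with 2 symbols of which 1 is a gamma gene, had values of 12.46 to 12.99, above the median on all 12 arrays. Its group means were 12.85 in uninjured vehicle, 12.60 in wound vehicle, 12.82 in wound trimebutine and 12.67 in wound alprostadil. None of these probe sets can be read as the level of a single gene. Pcdhga10, a variable exon gene of the gamma cluster, was the only gamma gene with a probe set of its own, and its values were 11.45, 11.66 and 11.42 in uninjured vehicle, 11.64, 11.72 and 11.67 in wound vehicle, 11.57, 11.70 and 11.75 in wound trimebutine, and 11.69, 11.74 and 11.86 in wound alprostadil. It was bright on all 12 arrays and varied by 0.44 log2 units in all. Whether its probe set reads the variable exon or the constant exons shared by all gamma genes was not tested.

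Of the 12 non-clustered genes, 10 were above the array median on at least 3 arrays and 8 on all 12. Those 8 were Pcdh7, Pcdh9 and Pcdh11x and Pcdh1 of the delta-1 subgroup, whose cytoplasmic tails carry a motif that binds protein phosphatase-1, and Pcdh10, Pcdh17, Pcdh18 and Pcdh19 of the delta-2 subgroup, several of which bind the WAVE actin-regulating complex. Pcdh20 and Pcdh15, a component of hair-cell tip links in the inner ear, reached 3 and 4 arrays. Pcdh8, a paraxial mesoderm and synapse protocadherin, reached 1 array, and Pcdh12, an endothelial protocadherin, reached 0, with values of 5.89 to 6.37. Of the 7 endothelial markers, Pecam1, Tie1, Emcn and Esam were above the median on 0 arrays and Kdr on 1, while Cdh5 was on 11 and Tek on 12, with values of 6.97 to 8.24.

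The promoters of the 4 non-clustered genes with the highest signal are shown because Pcdh17, Pcdh18 and Pcdh19 had the smallest p-values of the comparison of wound with uninjured vehicle, and Pcdh18 one of the smallest with trimebutine. The promoters of the beta genes are not shown. RefSeq promoters of the build GRCm38.p6 were found for 9 of the 35 genes, all non-clustered. The lines give the 150 bases just before the transcription start, 5′ to 3′ on the gene's strand, with matches to 5 motifs in capitals on either strand: the GC box (GGGCGG), the CAAT box (letters CCAAT), the TATA box (TATAAA), the cAMP response element (TGACGTCA) and the AP-1 site (TGANTCA).
Pcdh7, chr5:57717931-57718080, + strand: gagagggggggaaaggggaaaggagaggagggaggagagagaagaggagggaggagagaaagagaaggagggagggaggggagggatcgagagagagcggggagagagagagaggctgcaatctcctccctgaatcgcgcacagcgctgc
Pcdh17, chr14:84443413-84443562, + strand: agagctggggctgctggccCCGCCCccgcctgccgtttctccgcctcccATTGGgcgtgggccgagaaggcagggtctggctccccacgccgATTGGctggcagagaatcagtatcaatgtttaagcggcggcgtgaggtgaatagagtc
Pcdh18, chr3:49757317-49757466, - strand: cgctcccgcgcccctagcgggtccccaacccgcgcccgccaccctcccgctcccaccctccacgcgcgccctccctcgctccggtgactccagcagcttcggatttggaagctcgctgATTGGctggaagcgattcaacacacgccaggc
Pcdh19, chrX:133688994-133689143, - strand: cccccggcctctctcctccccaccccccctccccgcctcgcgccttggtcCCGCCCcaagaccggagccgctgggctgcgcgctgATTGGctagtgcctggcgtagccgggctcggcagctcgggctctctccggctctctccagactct

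In this window a CAAT box lay in 7 of the 9 genes' promoters, against 24.5% of 32851 mouse promoters, and a GC box in 3 of 9, against 28.6%. Pcdh17 had 2 CCAAT matches, beginning 101 and 58 bases before the start, and Pcdh18 and Pcdh19 had 1 each, beginning 32 and 65 bases before it. Pcdh17 and Pcdh19 also held a GC box. A TATA box was found in 2 of 9 (Pcdh8 and Pcdh15), against 7.57% of all promoters. The cAMP response element and the AP-1 site were found in 0 of 9, against 1.36% and 4.24%. The stretch before Pcdh7 held none of these letters and was made largely of runs of g and a. A match describes letters only and does not show that a factor binds.

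**Figure D2:**
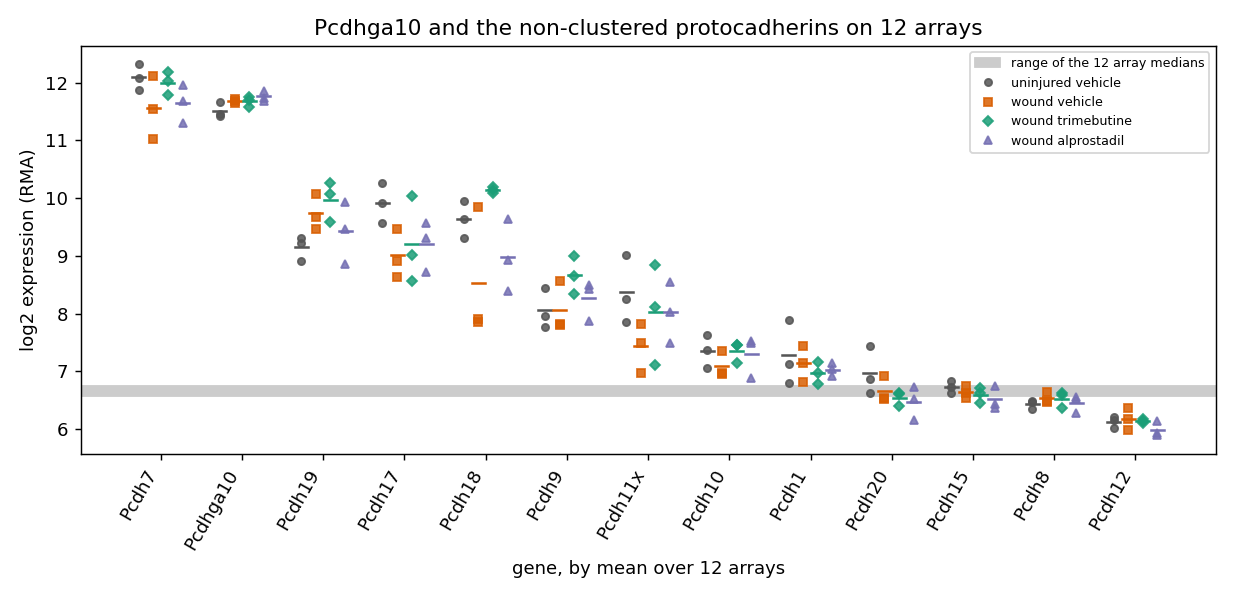
Log2 expression of Pcdhga10 and the 12 non-clustered protocadherin genes (horizontal axis, by mean over 12 arrays), with a point for each array, a bar for each group mean of 3 arrays and a grey band for the range of array medians. Pcdh7 and Pcdhga10 lie above 11 on all arrays, Pcdh18 spreads most, from 7.85 to 10.20, and Pcdh8 and Pcdh12 lie at or below the band.

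Across the 4 groups, 0 of the 21 tested genes passed the limma F test at an adjusted p of 0.05, where 0.0152% of the 13153 genes tested passed. At an unadjusted p under 0.05 there were 4 (Pcdhb15, Pcdhb16, Pcdh18 and Pcdhb20), against 7.89% of all genes tested. Pcdhb15 had the smallest value (limma F test, unadjusted p = 6.15e-04, adjusted p = 0.225).

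Wound vehicle was compared with uninjured vehicle to show how spheres from wounds differed from those of intact skin, both without a drug. Non-clustered protocadherins lay lower in wound vehicle in 8 of 10 cases, with a median difference of -0.29 log2 units (-0.46 to -0.13 with 1 array left out). The low values were on wound vehicle replicates 1 and 2, where 1 of 10 genes on each array was above its own median over the 12 arrays, while on replicate 3 8 of 10 were. In the same order of replicates the mean of fibroblast markers was 12.05, 11.84 and 12.59 and that of mural markers 7.92, 7.92 and 8.70, and their part in the result was not tested. The 10 beta genes had a median of 0.019, which ran from -0.13 without uninjured vehicle replicate 3 to 0.12 without wound vehicle replicate 1, and the 13153 genes tested a median of 0.0069. None of the 21 genes passed in limma (0 of 21, against 0.0456% of all genes tested). At an unadjusted p under 0.05, 0 were higher (4.75% of all genes) and 2 were lower (8.24% of all genes). Wound and uninjured arrays were fully separate for 1 gene on the higher side (8.01% of all genes) and 2 on the lower (10%).

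Pcdh17, which is involved in axon growth and synapse organization in the brain, had values of 10.27, 9.92 and 9.57 in uninjured vehicle and 8.91, 8.64 and 9.47 in wound vehicle. All 3 wound arrays lay below all 3 uninjured arrays. The difference was -0.91 ± 0.37 log2 units (SE, n = 3 per group; limma, adjusted p = 0.357). Pcdh18 had values of 9.64, 9.94 and 9.31 in uninjured vehicle and 7.85, 7.91 and 9.84 in wound vehicle. Wound vehicle replicates 1 and 2 stood far below, and replicate 3 stood among the uninjured arrays. The difference was -1.09 ± 0.48 (limma, adjusted p = 0.376), and without wound vehicle replicate 3 it was -1.75 (adjusted p = 0.0705). It was -0.75 without wound vehicle replicate 1.

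Pcdh11x, an X-linked delta-1 gene, had values of 7.85, 8.25 and 9.01 in uninjured vehicle and 6.98, 7.49 and 7.82 in wound vehicle. The groups touched without overlapping, and the difference was -0.94 ± 0.45 (limma, adjusted p = 0.417), or -0.62 without uninjured vehicle replicate 3. Pcdh7, a delta-1 gene, had values of 12.08, 12.31 and 11.88 in uninjured vehicle and 11.55, 11.02 and 12.11 in wound vehicle. Here replicate 3 of wound vehicle again lay within the uninjured range, and the difference was -0.53 ± 0.26 (adjusted p = 0.421), or -0.81 without that replicate and -0.26 without wound vehicle replicate 2.

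Pcdh19, another X-linked gene and a cause of epilepsy in people when mutated, was the one gene whose wound vehicle arrays all lay higher. Its values were 8.90, 9.23 and 9.31 in uninjured vehicle and 9.46, 9.67 and 10.07 in wound vehicle. The difference was 0.59 ± 0.27 (limma, adjusted p = 0.399). Other differences on the higher side were Pcdhb13 at 0.23 ± 0.12, Pcdhga10 at 0.16 ± 0.089 and Pcdhb18 at 0.13 ± 0.15, with overlapping groups and adjusted p of 0.437, 0.463 and 0.727. Pcdhb13 was at 0.13 without wound vehicle replicate 3, and Pcdhb18 at 0.029 without wound vehicle replicate 2 and 0.26 without replicate 1. Among genes that were not tested, Pcdhb5 had means of 6.51 ± 0.40 in uninjured and 5.76 ± 0.14 in wound vehicle, and Pcdhb8 had means of 6.50 ± 0.061 and 6.17 ± 0.058 (SD, n = 3), all near or below the array median.

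Wound trimebutine was compared with wound vehicle to show what went with that drug among wound spheres. Beta genes lay higher with trimebutine in 9 of 10 cases. Their median difference was 0.37 log2 units, or 0.23 with no filter on signal, where all 22 beta genes enter. It was 0.28 without wound vehicle replicate 1 and 0.51 without replicate 3. Non-clustered genes lay higher in 7 of 10, with a median of 0.25 (0.18 to 0.43 without the same replicates). Of the 13153 genes tested, 6576 lay above 0. None of the 21 genes passed in limma (0 of 21, against 0% of all genes tested). At an unadjusted p under 0.05, 5 were higher (6.38% of all genes) and 0 lower (3.05%). The arrays of the 2 groups did not overlap for 4 genes, all higher with trimebutine (9.21% of all genes), and for 0 genes on the lower side (6.63%).

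Pcdhb15 had values of 7.59, 8.07 and 7.83 in wound vehicle and 8.51, 8.56 and 8.46 in wound trimebutine. The 3 trimebutine arrays were close together and lay above all 9 other arrays, the highest of which was at 8.07. The difference was 0.68 ± 0.13 log2 units, or 1.61-fold (SE, n = 3 per group; limma, unadjusted p = 3.59e-04, adjusted p = 0.528). It was 0.56 to 0.80 with any 1 array left out, and the smallest adjusted p of those fits was 0.0837.

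Pcdhb16, the next gene along the chromosome, had values of 8.54, 8.48 and 8.98 in wound vehicle and 9.39, 9.21 and 9.23 in wound trimebutine. Its trimebutine arrays also lay above all 9 others, of which the highest was at 9.02, and the difference was 0.61 ± 0.19 (limma, adjusted p = 0.528). Pcdhb20 had values of 8.23, 8.49 and 8.57 in wound vehicle and 8.68, 8.95 and 9.17 in wound trimebutine. The groups did not overlap, but uninjured vehicle reached 8.83, above the lowest trimebutine array, and the difference was 0.50 ± 0.15 (adjusted p = 0.528).

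Pcdh18, a delta-2 gene, showed the largest difference of the 21 tested protocadherin genes in this comparison. Its values were 7.85, 7.91 and 9.84 in wound vehicle and 10.09, 10.20 and 10.14 in wound trimebutine. The trimebutine arrays had an SD of 0.054 and lay above all 9 others, of which the highest was uninjured vehicle replicate 2 at 9.94. The difference was 1.61 ± 0.48, or 3.04-fold (limma, unadjusted p = 0.00738, adjusted p = 0.528). It depended on wound vehicle: without replicate 3 it was 2.26 and passed (adjusted p = 0.0434), and without replicate 1 or 2 it was 1.27 and 1.30 (adjusted p = 0.914 and 0.976). The 4 arrays with the lowest Pcdh18, wound vehicle and wound alprostadil replicates 1 and 2 at 7.85 to 8.93, were the 4 with the lowest mean of fibroblast markers, 11.77 to 12.05, and the part of that mean in the result was not tested.

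A pattern in which all 3 trimebutine arrays exceed all 9 others was found for 3 of the 21 genes (Pcdhb15, Pcdhb16 and Pcdh18), against 0.829% of all genes tested; it was looked for after the values of Pcdhb15 were seen. Pcdh9, a delta-1 gene, differed by 0.60 ± 0.27 (adjusted p = 0.530) with overlapping groups. On the lower side no gene had an unadjusted p under 0.05, and the values with the smallest p were Pcdh1 at -0.17 ± 0.25, Pcdh20 at -0.12 ± 0.21, Pcdh15 at -0.042 ± 0.12 and Pcdhb13 at -0.027 ± 0.12. Centring the arrays on their medians turned Pcdh15 and Pcdhb13 to 0.013 and 0.028. Pcdhga10 differed by -0.0035 ± 0.089, with a 95% interval of -0.20 to 0.20.

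**Figure D3:**
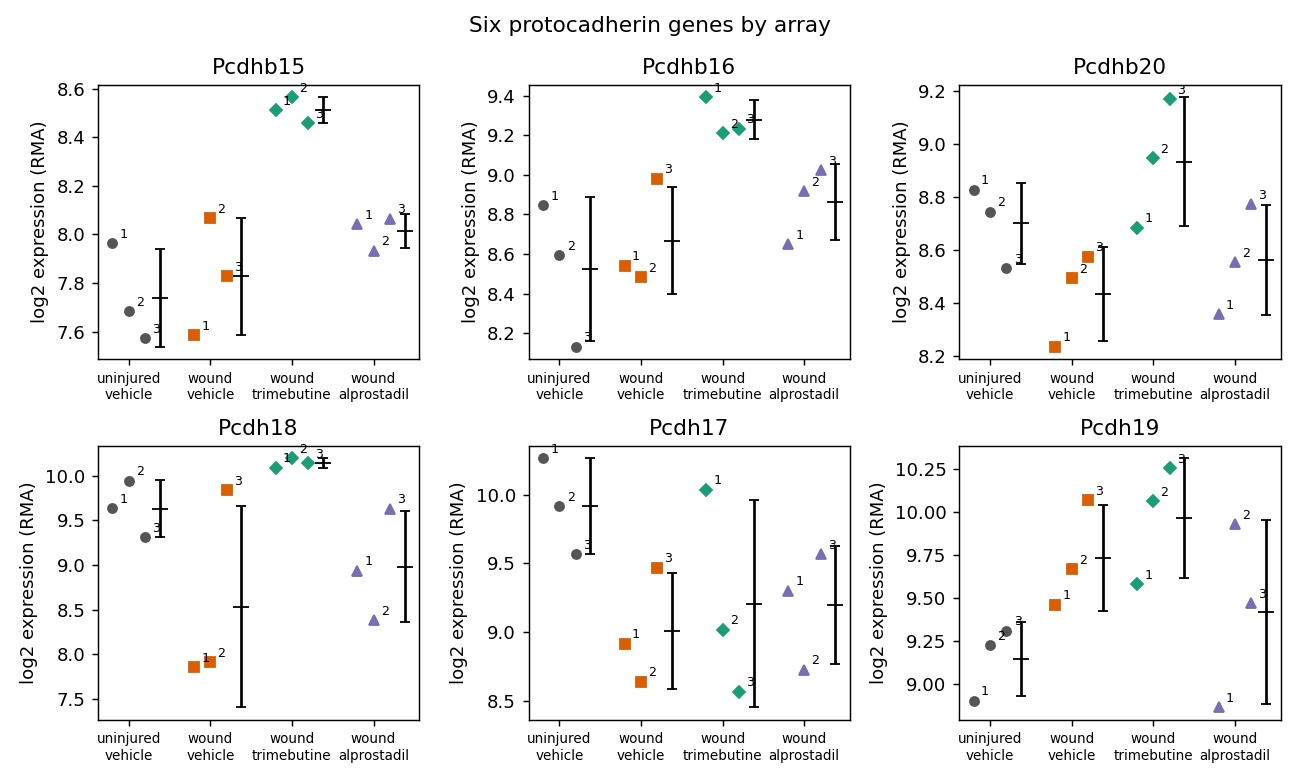
Log2 expression of 6 protocadherin genes on the 12 arrays, 1 panel a gene with its own vertical scale, points numbered by replicate, and black bars for the mean and SD of 3 arrays. The trimebutine arrays of Pcdhb15, Pcdhb16 and Pcdh18 lie above all others, and wound vehicle replicate 3 of Pcdh18, at 9.84, stands apart from replicates 1 and 2.

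Wound alprostadil was compared with the same wound vehicle arrays, so this comparison, the trimebutine one and the wound one share those arrays. The medians were 0.12 for the 10 beta genes and 0.14 for the 10 non-clustered genes, against 0.031 for all genes tested, of which 59.4% lay above 0. None of the 21 genes passed in limma (0 of 21, against 0% of all genes tested), and at an unadjusted p under 0.05 0 were higher (1.07% of all genes) and 0 lower (1.68%). The groups did not separate for any of the 21, where they did for 2.78% of all genes on the higher and 3.12% on the lower side. The non-clustered median was -0.06 without wound vehicle replicate 2, and the beta median was 0.0017 without wound vehicle replicate 1.

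The values with the smallest p on the higher side were Pcdhb14 at 0.45 ± 0.32, Pcdhb15 at 0.19 ± 0.13, Pcdhb17 at 0.29 ± 0.21 and Pcdh11x at 0.59 ± 0.45. On the lower side they were Pcdh19 at -0.31 ± 0.27, Pcdh15 at -0.12 ± 0.12, Pcdh20 at -0.19 ± 0.21 and Pcdhb22 at -0.24 ± 0.27. Each of these had an adjusted p of 0.998 in limma. Single arrays moved most of them by over 1.5 times. Pcdhb15 was at 0.066 without wound vehicle replicate 1 and 0.31 without replicate 2, Pcdhb17 at 0.18 without wound vehicle replicate 1, and Pcdh11x at 0.33 without wound alprostadil replicate 3. Pcdhb22 was at -0.013 when wound vehicle replicate 3 was left out and -0.58 when alprostadil replicate 3 was. Without alprostadil replicate 2, Pcdh20 was at -0.039, Pcdh15 at -0.24 and Pcdh19 at -0.57, and without alprostadil replicate 3 Pcdh15 was at -0.042 and Pcdh20 at -0.32. For Pcdh19 the alprostadil values were 8.87, 9.93 and 9.47, so replicate 1, the array with high macrophage markers, was the lowest of all 12 arrays; without it the difference was -0.032. For Pcdh18 the alprostadil values were 8.93, 8.38 and 9.63, with replicate 3 highest, and the difference from wound vehicle was 0.45 ± 0.48, with a 95% interval of -0.62 to 1.52.

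**Figure D4:**
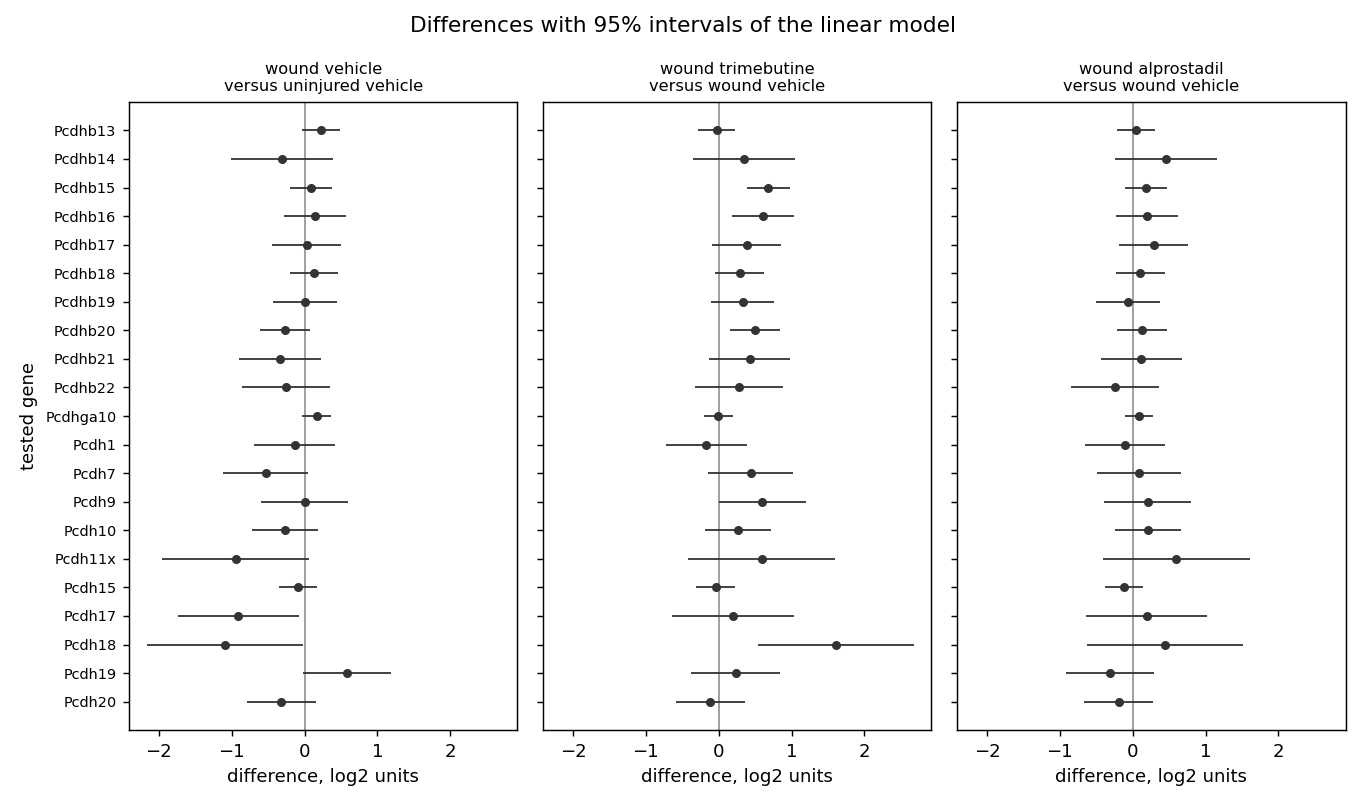
Differences in log2 units (horizontal axis) of the 21 tested protocadherin genes in 3 comparisons, as points with the 95% intervals of the linear model on 3 arrays per group. In the trimebutine panel the intervals of Pcdhb15, Pcdhb16, Pcdhb20, Pcdh9 and Pcdh18 lie above 0, and none of the 21 genes passed after adjustment over all genes.

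The 2 drug groups were also set against each other, which leaves wound vehicle out of the difference. Beta genes lay higher with trimebutine than with alprostadil in 8 of 10 cases, with a median of 0.34 log2 units, while the median was 0.078 for non-clustered genes (0.30 without wound trimebutine replicate 1) and -0.015 for all genes tested. None of the 21 genes passed in limma (0 of 21, against 0% of all genes tested), and 3 were higher (2.50% of all genes) and 0 lower (1.92%) at an unadjusted p under 0.05. The groups did not overlap for 4 genes on the higher side (Pcdhb15, Pcdhb16, Pcdhb21 and Pcdh18; 5.21% of all genes) and 0 on the lower (6.03%).

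Pcdhb15 differed by 0.50 ± 0.13 between the drugs, with alprostadil arrays at 8.04, 7.93 and 8.07 (limma, unadjusted p = 0.00336, adjusted p = 0.752). Pcdhb20 differed by 0.37 ± 0.15, Pcdh18 by 1.16 ± 0.48 and Pcdhb16 by 0.41 ± 0.19, each at an adjusted p of 0.752. On the lower side the differences were Pcdhga10 at -0.090 ± 0.089, Pcdhb14 at -0.11 ± 0.32, Pcdhb13 at -0.075 ± 0.12 and Pcdh1 at -0.062 ± 0.25. Both comparisons with trimebutine use the same 3 trimebutine arrays, so they are not independent of each other.

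Other genes tied to protocadherins were looked at as lists. Of the 16 genes matched and tested for cohesin and promoter choice, 0 passed in any of the 4 comparisons, and their median differences were 0.014 for wound vehicle, 0.068 for trimebutine and 0.062 for alprostadil. In the trimebutine comparison the cohesin subunits Smc1a and Smc3 differed by 0.49 ± 0.15 and 0.28 ± 0.11 (adjusted p = 0.528 for both), and Ctcf by 0.054 ± 0.068. Of 8 genes of the proteases that shed and cleave protocadherins and of 17 cytoplasmic partners, 0 passed in any comparison. Marcks, a membrane-bound actin regulator, differed by 0.26 ± 0.085 with trimebutine (adjusted p = 0.528).

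Genes that flank the clusters on the chromosome gave a local comparison for the beta genes. Of 9 tested neighbours 0 passed, and in the trimebutine comparison their median was 0.10, against 0.37 for the beta genes. In the alprostadil comparison their median was 0.099, with 8 of 9 above 0. The beta genes had a median of 0.12 there, with 8 of 10 above 0, and 59.4% of all genes tested lay above 0. In the wound comparison the neighbours had a median of -0.067, against 0.019 for the beta genes. With trimebutine, Taf7, which lies between the beta and gamma clusters, differed by 0.082 ± 0.15, Zmat2 by 0.15 ± 0.10, Diaph1 by -0.020 ± 0.24 and Hars2 by 0.18 ± 0.074 (limma, adjusted p = 0.842, 0.613, 0.980 and 0.528). The difference between the 2 lists was not tested.

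Among 11 tested classical and type II cadherins 0 passed in any comparison, with medians of 0.0099 in wound vehicle, 0.0086 in trimebutine, 0.17 in alprostadil and 0.029 between the drugs. N-cadherin (Cdh2) differed by 0.88 ± 0.24 in wound vehicle (limma, adjusted p = 0.204), Cdh10 by -1.47 ± 0.45 and Cdh13 by -1.19 ± 0.39 (adjusted p = 0.238 and 0.268). The endothelial cadherin Cdh5 differed by 2.01 ± 0.72 (limma, unadjusted p = 0.0187, adjusted p = 0.302). Its values were 9.98, 9.98 and 7.37 in wound vehicle and 7.37, 7.52 and 6.41 in uninjured vehicle, so the groups overlapped. For trimebutine against alprostadil, Cdh6 differed by -1.81 ± 0.56 (limma, unadjusted p = 0.00862, adjusted p = 0.752), while 6 of the 11 genes lay above 0. Of 5 large cadherins 0 passed in any comparison, and Fat4, a giant cadherin of tissue growth control, differed by 1.59 ± 0.68 with trimebutine (adjusted p = 0.528).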

How the data were processed

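The authors deposited log2 expression values per probe set, from Affymetrix Mouse Gene 2.0 ST arrays; per the submitters' processing notes, RMA and oligo (an R package) were used, without versions named. Of 41345 probe sets, 23521 carried 1 gene symbol, 1814 several and 16010 none. For symbols with several probe sets the one with the highest mean was kept. Testing was limited to the 13153 genes that exceeded the array median on 3 or more of the 12 arrays. One limma 3.58.1 fit in R 4.3.3 held the 4 groups together, with no covariate and 8 residual degrees of freedom, with two-sided p-values adjusted by Benjamini-Hochberg over all 13153 genes and a threshold of 0.05. The number of arrays limits the precision.

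The named genes were the 4 with the highest signal in each class, any that passed, and in each comparison the 4 with the smallest p in each direction. Pcdhb5, Pcdhb8, Pcdhb21 and Pcdh9, and Cdh5, Cdh6, Taf7, Diaph1 and Ctcf among other genes, were named after their values were seen. The border within the beta cluster and the count of genes highest in trimebutine were also chosen then. Members and lists were chosen with earlier results of these data known. Scripts were tested on simulated data. Alternatives were a replicate block, no filter, a filter at 6 arrays, the mean of probe sets, median centring, limma's trend and robust options, only the groups compared, the 60th percentile in place of the median, and leaving out each array; leaving out the 3 arrays of lowest median, and a replicate block within the groups compared, were added after seeing the data. The labels do not say that a replicate number marks a shared animal, litter or day. Deviations from the group means of same-numbered arrays all correlated above 0.1 for wound vehicle with alprostadil (0.19, 0.43 and 0.62) and for trimebutine with alprostadil (0.22, 0.42 and 0.57). The numbers were taken as possible pairing in these comparisons only. Of the 6 differently numbered pairs, 4 correlated negatively in each of them. Deviations from a group mean cancel out over its 3 arrays, so these negative values follow in part from the positive ones. They are no separate evidence of pairing. Among the differently numbered pairs, wound vehicle replicate 1 with alprostadil replicate 2 reached 0.39, and trimebutine replicate 2 with alprostadil replicate 3 reached 0.25. The correlations therefore do not settle whether the numbers mark pairs. The p-values printed for these comparisons are from the fit without a replicate block, unless a block is named. For wound with uninjured vehicle the same-numbered correlations were -0.64 to -0.36, and for trimebutine with wound vehicle -0.17 to 0.29. Figures used Python 3.11.15 and matplotlib 3.10.9.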

Additional observations from a re-analysis of the deposited data

How the results depend on the processing

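The number of protocadherin genes that passed was 0 in every comparison under each alternative run, except that Pcdh18 passed for trimebutine against wound vehicle without wound vehicle replicate 3 (1 gene; range 0 to 1 over the arrays left out). Counts over all genes were less stable. For wound against uninjured vehicle, 6 genes became 2 with a replicate block, 0 with the stricter filter, 1 with median centring, 0 with only the groups compared, with or without the replicate block, 0 without the 3 arrays of lowest median, and 0 to 30 with 1 array left out. For the F test, 2 genes became 0 with the replicate block, the stricter filter or without the 3 arrays of lowest median, 1 with median centring, and 0 to 6 with 1 array left out. With 1 array left out the counts were 0 to 11 for trimebutine against wound vehicle, 0 to 1 for alprostadil against wound vehicle and 0 to 1 for trimebutine against alprostadil. The cause of these shifts was not tested.

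The beta median for trimebutine against alprostadil was 0.20 with no filter, where all 22 beta genes enter, and 0.26 to 0.43 with 1 array left out. Some other class medians changed sign with 1 array left out. The non-clustered median for alprostadil against wound vehicle ran from -0.058 to 0.36. The beta median for wound against uninjured vehicle ran from -0.13 to 0.12. The value of the 1 gamma gene for trimebutine against wound vehicle ran from -0.041 to 0.048. The counts of genes above the array median stayed at 10 beta and 1 gamma gene with 1 array left out, and non-clustered genes at 9 to 10. With the 60th percentile in place of the median they were 9 beta genes and 1 gamma gene. The non-clustered count also fell with that cutoff, since Pcdh1, Pcdh15 and Pcdh20 then exceeded it on fewer than 3 arrays. Small differences changed sign. For trimebutine against wound vehicle, Pcdh15 was 0.013 with median centring and 0.030 without the 3 arrays of lowest median (-0.098 to 0.030 with 1 array left out), and Pcdhb13 was 0.028 with median centring (-0.12 to 0.070). For trimebutine against alprostadil, Pcdh1 ran from -0.15 to 0.033 and Pcdhb14 from -0.29 to 0.015. The replicate block, over all groups or within the groups compared, changed no call for a protocadherin gene. Within the groups compared, it called 0 genes of all those tested for alprostadil against wound vehicle and 0 for trimebutine against alprostadil, and for the latter the adjusted p of Pcdhb15 was 0.333 in limma.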
